A study of Mus musculus with 6 samples.

Results

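The nuclear genes for subunits of mitochondrial oxidative phosphorylation were read in mouse liver RNA after delivery of a vector carrying Pik3cd (AAV-PIK3CD) or a control vector (AAV-control). Members were the probe sets with 1 gene symbol that starts with Ndufa, Ndufb, Ndufc, Ndufs or Ndufv and a digit, is Sdha, Sdhb, Sdhc or Sdhd, or starts with Uqcr, with Cox and a digit from 4 to 8, or with Atp5. This gave 84 genes of 19505 gene symbols measured, among 22206 probe sets in all, and no member had several probe sets. By name, 37 belonged to complex I, 4 to complex II, 8 to complex III, 18 to complex IV and 17 to complex V. The name misplaces some: Ndufa4, counted in complex I, is a complex IV subunit, and Cox7a2l, counted in complex IV, is classed as an assembly factor.

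Each group had 3 Clariom S mouse arrays, called by their label numbers: arrays 51, 52 and 53 for AAV-PIK3CD and arrays 48, 49 and 50 for AAV-control. Per the study's methods, male C57BL/6 mice were injected at 8 weeks of age and killed at 12 weeks. The AAV8 vector carried mouse Pik3cd, which codes for the delta catalytic subunit of PI3K, under the liver-specific TBG promoter, so the transgene is driven mainly in hepatocytes. The control is described in one place as the same vector with EGFP and in another as an empty vector. The route of injection is given both as the portal vein and as the tail vein. The labels call the tissue tumor, while the study describes liver. The arrays are separate samples per the design text, and whether each was a separate mouse is not stated. The limma p-values therefore measure the spread between these samples, and the exact permutation p-values rest on regrouping them. The rank products p-values instead set a gene's ranks against values shuffled within each array. They do not measure that spread, and a single array far from the rest can lower them.

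Pik3cd itself read 4.78, 5.14 and 4.86 in AAV-PIK3CD and 4.66, 4.34 and 4.48 in AAV-control, all as log2 signal. The groups did not overlap, with a difference of 0.43 (limma SE 0.14, rank products adjusted p = 0.676). Where the probes of this set lie relative to the vector's insert is not known here. Albumin (Alb), the main plasma protein made by hepatocytes, read between 13.19 and 13.30 on the 6 arrays. The highest value of any probe set was 13.3, so Alb lay at the top of the measured range, where a change may not show. Array 51 stood apart from the other arrays. All 14 measured genes of a pancreatic acinar marker list were highest on array 51, where their mean level was 8.02, against 3.946 to 3.996 on the other AAV-PIK3CD arrays and 3.87 to 4.08 on the AAV-control arrays. Of 15 skeletal muscle markers, 14 were highest on array 51, with a mean level of 5.01, against 4.04 to 4.08 on arrays 52 and 53 and 3.88 to 4.06 in AAV-control. None of these markers reads 0 on a log2 array scale, so the levels outside array 51 include background. In RNA from whole tissue, fewer cells of a type and less RNA per cell cannot be told apart. Results are therefore given with and without array 51.

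Oxidative phosphorylation moves electrons from NADH and succinate to oxygen through complexes I to IV of the inner mitochondrial membrane and uses the proton gradient so made to form ATP at complex V, the ATP synthase. Several catalytic subunits are coded in mitochondrial DNA, and most subunits, including all members here, are coded in the nucleus, made on cytosolic ribosomes and imported. Hepatocytes are rich in mitochondria, which supply ATP for gluconeogenesis and urea synthesis. The transcription factors NRF1 and GABP, an ETS family protein, are known to act on many of these promoters, with the coactivator PGC-1alpha (Ppargc1a).

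Promoter sequences are shown because the choice by name did not use them. RefSeq promoters (GRCm38.p6, 250 bases before to 50 after each annotated start) were found for 69 members, as 74 promoters, and 15 members had none in the table. The NRF1 motif GCGCANGCG, searched on both strands as were all motifs, occurred in 28.4% of the 74 member promoters, against 6.25% of all 32851 promoters of the same length. The ETS motif CCGGAAG occurred in 23.0% of member promoters against 8.86% of all. The YY1 motif AANATGGCG occurred in 13.5% against 2.38%. The GC box GGGCGG, bound by SP factors, occurred in 39.2% against 35.7%, and TATAAA in 12.2% against 13.6%. The same bases can count for more than 1 motif, and a match is a string of letters and not a binding site. The NRF1 motif was in 9 of 35 promoters of complex I, 2 of 3 of complex II, 2 of 5 of complex III, 1 of 13 of complex IV and 7 of 18 of complex V. The 120 bases before the start are printed for 1 member of each complex with an NRF1 or ETS match there (Ndufb4, Sdhd, Uqcr11, Cox6b1 and Atp5g2). Each was the named member with such a match that was furthest down on array 51. Ndufs7 and Atp5o, the members furthest down on array 51, are printed as well. This choice was made after the values were seen. Capitals mark matches of any of the 5 motifs that lie wholly within the printed bases.
Ndufb4: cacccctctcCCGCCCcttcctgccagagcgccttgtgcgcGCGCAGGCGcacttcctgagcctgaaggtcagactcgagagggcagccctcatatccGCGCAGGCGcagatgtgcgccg
Sdhd: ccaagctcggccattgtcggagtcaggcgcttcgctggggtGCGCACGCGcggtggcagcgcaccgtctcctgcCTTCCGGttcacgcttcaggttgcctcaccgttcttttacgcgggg
Uqcr11: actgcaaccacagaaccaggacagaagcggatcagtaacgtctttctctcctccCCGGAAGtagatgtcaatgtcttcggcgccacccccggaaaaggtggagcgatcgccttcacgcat
Cox6b1: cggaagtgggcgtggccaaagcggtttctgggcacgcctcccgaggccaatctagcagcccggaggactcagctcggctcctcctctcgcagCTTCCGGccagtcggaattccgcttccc
Atp5g2: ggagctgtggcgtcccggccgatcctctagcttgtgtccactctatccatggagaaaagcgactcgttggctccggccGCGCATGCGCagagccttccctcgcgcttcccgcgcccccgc
Ndufs7: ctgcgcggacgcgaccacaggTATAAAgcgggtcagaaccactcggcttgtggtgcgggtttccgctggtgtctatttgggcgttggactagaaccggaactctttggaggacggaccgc
Atp5o: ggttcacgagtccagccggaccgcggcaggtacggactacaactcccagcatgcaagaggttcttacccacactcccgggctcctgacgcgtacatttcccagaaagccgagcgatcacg

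These stretches lie at chr16:37654369-37654488 (minus strand), chr9:50603850-50603969 (minus strand), chr10:80406822-80406941 (minus strand), chr7:30626115-30626234 (minus strand), chr15:102671048-102671167 (minus strand), chr10:80249329-80249448 (plus strand) and chr16:91931631-91931750 (minus strand). Ndufb4 had NRF1 matches that began 79 and 22 bases before the start, and Atp5g2 had a palindromic one, which matches on both strands, 42 bases before it. Sdhd had an NRF1 match at 79 bases and an ETS match at 46 bases. The ETS matches of Uqcr11 and Cox6b1 began 66 and 28 bases before the start. Matches that ran across the start are not in capitals: an NRF1 match in Uqcr11 and a GC box each in Sdhd and Atp5g2. Ndufb4 had a further NRF1 match upstream of the printed bases. Ndufs7 had only a TATAAA match in this stretch, and Atp5o had none of the 5 motifs in it. In the 50 bases after the start, which are not printed, Atp5o had an NRF1 match and Ndufs7 a YY1 match.

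The subunit transcripts were among the bright ones of the liver arrays. Of the 84 members, 77 had a mean above the median of all probe sets. The 7 below it were the complex IV isoforms Cox7a1, Cox8c, Cox8b, Cox7b2, Cox4i2 and Cox6b2, and Ndufa4l2, a paralog of Ndufa4 counted in complex I by name. A total of 38 members lay in the top 5% of probe sets by mean level. The median over the members was 8.87, 9.10 and 9.22 on arrays 51, 52 and 53, against 9.18, 9.13 and 9.03 on arrays 48, 49 and 50. Array 51 was thus below the other 5 arrays, and arrays 52 and 53 lay within the range of AAV-control or just above it.

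No member passed the rank products test over all probe sets in either direction, which called 0.0045% of all probe sets higher and 0.036% lower. The smallest adjusted p of a member was 0.837. By limma 0 members passed as well, where 0% of all probe sets did, and the smallest adjusted p was 0.932. Before adjustment, 1 member was higher with a rank products p under 0.05 (Cox6b2), as were 2.84% of all probe sets, and 1 was lower (Ndufs7), as were 2.84%. By limma 1 member (Cox4i2) had such a p, with 5.08% of all probe sets. The arrays of the groups did not overlap for 1 member that was higher in AAV-PIK3CD (Cox4i2), where 4.47% of all probe sets were apart in that direction, and for 2 that were lower (Ndufa2 and Atp5e), where 4.97% were. The limma SE of a member's difference ran from 0.11 to 0.29, with a median of 0.15, and the largest difference of any member was 1.25-fold. As shares of 84 members, none of these counts exceeded that of all probe sets.

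The members lay mostly below AAV-control, by small amounts. In 59 of 84 the AAV-PIK3CD mean was lower and in 25 it was higher, and the median difference was -0.08 on the log2 scale, against -0.01 over all probe sets and -0.04 over those above the median level, 59.2% of which were lower in AAV-PIK3CD. The median difference was -0.14 for complex III (6 of 8 lower), -0.12 for complex V (17 of 17 lower) and -0.10 for complex II (4 of 4 lower). It was -0.05 for complex I (23 of 37 lower), which turned to 0.02 after quantile normalization and 0.01 after cyclic loess. It was -0.01 for complex IV (9 of 18 lower), which turned to 0.02 and 0.04 under the same scalings. Without the 7 tissue isoforms, 8 of 11 complex IV members were lower, with a median of -0.10.

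Array 51 carried these differences. Without it, the median difference of the members was 0.03, and 28 of 84 were lower in AAV-PIK3CD and 54 higher. Over all probe sets the median without array 51 was -0.01, with 11426 of 22206 lower. Over those above the median level it was -0.02, with 6178 of 11103 lower. The medians of the complexes without array 51 were 0.06, 0.03, -0.02, 0.07 and 0.01 from complex I to complex V. Without array 51, rank products called 0 members, and 0.00901% of all probe sets higher and 0.063% lower. Before adjustment, 0 members had a rank products p under 0.05, against 5.33% of all probe sets, and 1 member, Cox4i2, had a limma p under 0.05, against 4.48%. Arrays 52 and 53 lay above all of AAV-control for Uqcrc1, Cox7a2 and Cox4i2, where 8.25% of all probe sets did, and below it for Ndufa2 and Atp5e, where 9.82% did. Leaving out any other single array kept the median below 0, between -0.16 without array 53 and -0.06 without array 48.

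**Figure D1:**
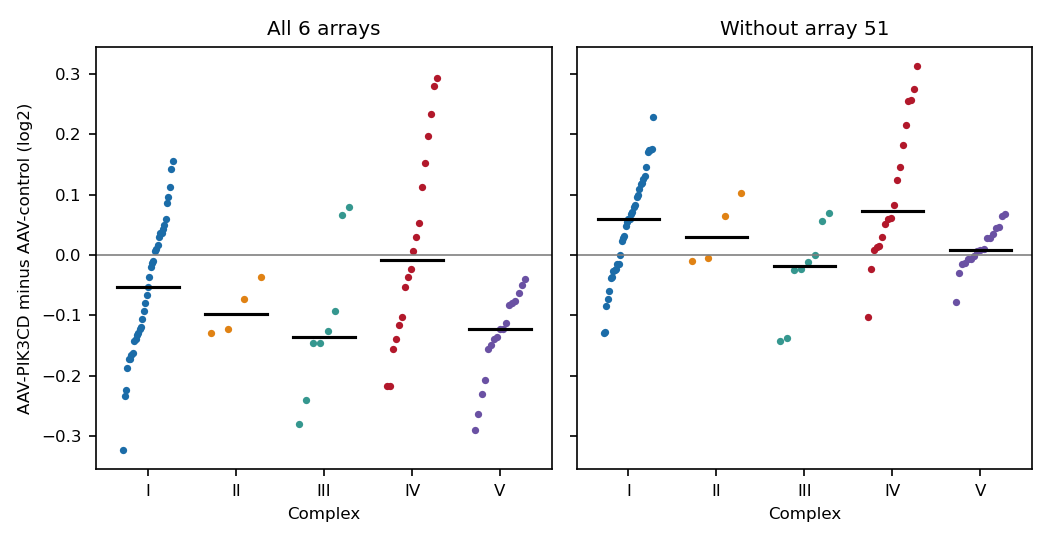
Difference of each member between AAV-PIK3CD and AAV-control (log2, y axis) by complex (x axis), with all 6 arrays at the left and without array 51 at the right; each point is a gene and each black bar the median of a complex. All 17 complex V genes lie below 0 with 6 arrays, and their median is 0.01 without array 51.

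The level of array 51 was compared with the mean of the other 5 arrays, gene by gene, as a description. The median member was 0.31 lower on array 51, against 0.002 lower over all probe sets. Array 51 was the lowest of the 6 arrays in 59 of 84 members (70.2%), against 20.6% of all probe sets. Bright probe sets as a whole leaned the same way: in the top 5% of probe sets by level array 51 was lowest in 36.8%, with a median of -0.07, while for the 38 members in that range it was lowest in 34 (89.5%), with a median of -0.37. From the 90th to the 95th percentile it was lowest in 12 of 20 members (60.0%, median -0.24) and in 35.8% of all probe sets. From the 75th to the 90th percentile it was lowest in 12 of 15 members and in 31.1% of all. Below this it was lowest in 1 of 4 members between the 50th and the 75th percentile, where 21.8% of all were, and in 0 of 7 members under the 50th percentile. After quantile normalization of the deposited values it was lowest in 51 of 84 members, with a median of -0.23, and after cyclic loess in 49 with a median of -0.22. The acinar and muscle markers described above were high on this same array, and their part in the lower subunit levels was not tested. Of 13 measured hepatocyte markers, 6 lay below the mean of the other arrays on array 51 and the median was 0.02 above it. Their mean level was 12.1 on array 51, among the brightest probe sets.

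**Figure D2:**
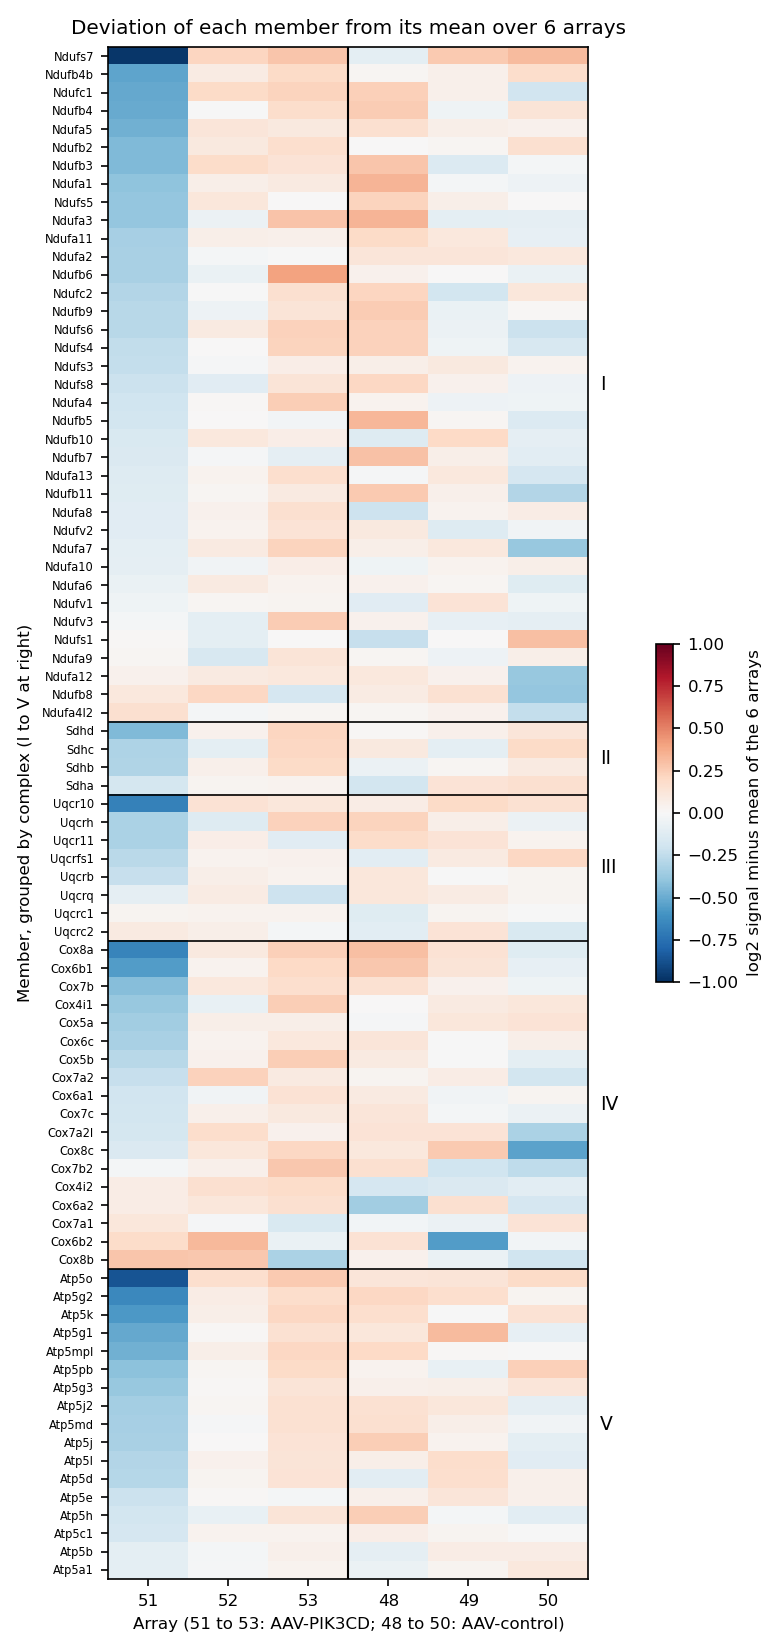
Heat map of the 84 members (rows, grouped by complex I to V and sorted by their level on array 51) over the 6 arrays (columns, AAV-PIK3CD at the left), coloured by log2 signal minus the mean of the 6 arrays. The column of array 51 is blue for most rows, and no other column is lowest in more than 11 members.

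Complex I, which oxidises NADH, held both the member that was furthest down on array 51 and several that were not down at all. Ndufs7, an iron-sulfur subunit of the arm that passes electrons to ubiquinone, read 7.29, 8.48 and 8.54 in AAV-PIK3CD and 8.17, 8.53 and 8.58 in AAV-control. Array 51 lay 1.17 below the mean of the other arrays, and the other AAV-PIK3CD arrays lay within the AAV-control range. The difference was -0.32 (SE 0.29, exact permutation p = 0.6, rank products p = 0.034, adjusted p = 0.837), and 0.08 without array 51. Ndufa2, an accessory subunit, read 7.85, 8.16 and 8.17 in AAV-PIK3CD and 8.30, 8.30 and 8.28 in AAV-control. The groups did not overlap, the difference was -0.23 (SE 0.13), and it was -0.13 without array 51 (exact permutation p = 0.1 with all arrays, the smallest that 3 against 3 allows). Ndufb4, an accessory subunit of the membrane arm, read 9.50, 10.00 and 10.18 in AAV-PIK3CD and 10.26, 9.96 and 10.13 in AAV-control. Its near copy Ndufb4b, whose signal may come in part from Ndufb4, was also 0.63 lower on array 51 than on the others.

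The core subunits of complex I did not move as a block on array 51. Of 6 core members, 3 were lowest there. Ndufv1, the subunit that binds NADH, read 9.79, 9.85 and 9.86 in AAV-PIK3CD and 9.72, 9.97 and 9.79 in AAV-control, with full overlap. Ndufs1, the largest iron-sulfur subunit, read 9.10, 8.99 and 9.09 in AAV-PIK3CD and 8.86, 9.09 and 9.39 in AAV-control. Among accessory subunits, 19 of 28 were lowest on array 51. The exceptions included Ndufa12 and Ndufb8, which were lowest on array 50 of AAV-control. Ndufb8 read 6.77, 6.87 and 6.50 in AAV-PIK3CD and 6.75, 6.82 and 6.28 in AAV-control, and its difference of 0.10 was -0.07 without array 50. Ndufa12 read 9.28, 9.33 and 9.34 in AAV-PIK3CD and 9.34, 9.28 and 8.86 in AAV-control, a difference of 0.16 (SE 0.14). Ndufa7 had a difference of 0.14 (SE 0.16), which was -0.01 without array 50. Ndufa4l2, a paralog of Ndufa4 that is known to be induced by hypoxia, read between 4.36 and 4.76, below the median of the arrays, and was the only complex I member with its highest value on array 51.

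Complex II, succinate dehydrogenase, is the only complex here with all subunits coded in the nucleus, and all 4 were measured. Sdhd, an anchor in the membrane, read 9.29, 9.77 and 9.94 in AAV-PIK3CD and 9.74, 9.78 and 9.85 in AAV-control. Sdhc, the other anchor, read 8.06, 8.27 and 8.57 in AAV-PIK3CD and 8.46, 8.27 and 8.56 in AAV-control. Both were lowest on array 51, and arrays 52 and 53 overlapped AAV-control. Sdhb, the iron-sulfur protein, read 9.54, 9.89 and 10.03 in AAV-PIK3CD and 9.78, 9.86 and 9.93 in AAV-control. Its difference of -0.04 turned to 0.01 after quantile normalization, 0.02 after cyclic loess and 0.10 without array 51. Sdha, the flavoprotein that oxidises succinate, read 8.27, 8.47 and 8.48 in AAV-PIK3CD and 8.26, 8.58 and 8.60 in AAV-control. It was the complex II member whose lowest value was on array 48 and not on array 51.

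In complex III, which passes electrons from ubiquinol to cytochrome c, 5 of 8 members were lowest on array 51, and Uqcrq, Uqcrc1 and Uqcrc2 were not. Uqcr10, a small accessory subunit, read 7.38, 8.20 and 8.17 in AAV-PIK3CD and 8.13, 8.25 and 8.21 in AAV-control. Its difference was -0.28 (SE 0.20) and rested on array 51, which lay 0.81 below the others. Uqcr11, another small subunit, read 6.64, 7.02 and 6.84 in AAV-PIK3CD and 7.14, 7.09 and 6.99 in AAV-control. Uqcrh, the hinge protein, read 10.25, 10.44 and 10.80 in AAV-PIK3CD and 10.79, 10.63 and 10.51 in AAV-control. Uqcrq, another small subunit, was lowest on array 53, and array 51 lay 0.11 below the mean of the other arrays. The core proteins Uqcrc1 and Uqcrc2 were slightly above the other arrays on array 51. Uqcrc1 read 8.86, 8.87 and 8.87 in AAV-PIK3CD and 8.71, 8.86 and 8.83 in AAV-control, and Uqcrc2 read 8.75, 8.72 and 8.64 in AAV-PIK3CD and 8.56, 8.80 and 8.51 in AAV-control. Their differences of 0.07 and 0.08 were less than their SEs of 0.11 and 0.12.

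Complex IV, cytochrome c oxidase, reduces oxygen. Its catalytic subunits are coded in mitochondrial DNA and the members here surround them. Of the 11 members that are not tissue isoforms, 10 were lowest on array 51, and Cox7a2l was lowest on array 50. Cox8a, the common isoform of the smallest subunit, read 9.24, 10.00 and 10.14 in AAV-PIK3CD and 10.20, 10.05 and 9.78 in AAV-control, a difference of -0.22 (SE 0.22) that was 0.06 without array 51. Cox6b1, which faces the intermembrane space, read 8.45, 9.04 and 9.21 in AAV-PIK3CD and 9.28, 9.14 and 8.93 in AAV-control, with a difference of -0.22 (SE 0.19) and 0.01 without array 51. Cox4i1, the common isoform of subunit 4, read 9.01, 9.31 and 9.63 in AAV-PIK3CD and 9.39, 9.48 and 9.50 in AAV-control. In all 3 genes arrays 52 and 53 lay among or near the AAV-control values and array 51 lay below every other array.

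The 7 isoforms known from other tissues gave lower signals, 6 of them with a mean below the median of all probe sets and Cox6a2 just above it. The mean of 6 of 7 was higher in AAV-PIK3CD, with a median difference of 0.20, and 0.26 without array 51. Over all probe sets in the lower 50% by level the median difference with all arrays was 0.02. None of the 7 was lowest on array 51, where 13.8% of all probe sets in the lower 50% by level were lowest. Cox4i2, the lung isoform of subunit 4, read 4.28, 4.37 and 4.39 in AAV-PIK3CD and 4.04, 4.06 and 4.10 in AAV-control. The groups did not overlap, and the difference was 0.28 (SE 0.11, limma p = 0.031, adjusted p = 0.932, exact permutation p = 0.1). All 6 values lay below the median of the arrays, between 4.81 and 4.87, so a fold change is of little use. Cox6b2, a testis isoform, read 3.81, 3.95 and 3.56 in AAV-PIK3CD and 3.77, 3.07 and 3.60 in AAV-control, with a difference of 0.29 (SE 0.18). Its rank products p of 0.040 (adjusted p = 0.861) went with the low value on array 49.

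The muscle isoforms can be set beside the muscle markers of array 51, without comparing levels between genes. Cox6a2, Cox7a1 and Cox8b, the heart and skeletal muscle isoforms, read 0.09, 0.14 and 0.34 higher on array 51 than on the mean of the other arrays, while the median of the 15 muscle markers was 0.92 higher. Cox6a2 read 5.15, 5.19 and 5.24 in AAV-PIK3CD and 4.73, 5.24 and 4.91 in AAV-control. Cox8b read 4.06, 4.05 and 3.46 in AAV-PIK3CD and 3.82, 3.71 and 3.58 in AAV-control. Cox7a1 read 4.49, 4.36 and 4.22 in AAV-PIK3CD and 4.35, 4.32 and 4.51 in AAV-control. Array 51 was the highest array for Cox8b, next to array 52, and for neither of the others.

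**Figure D3:**
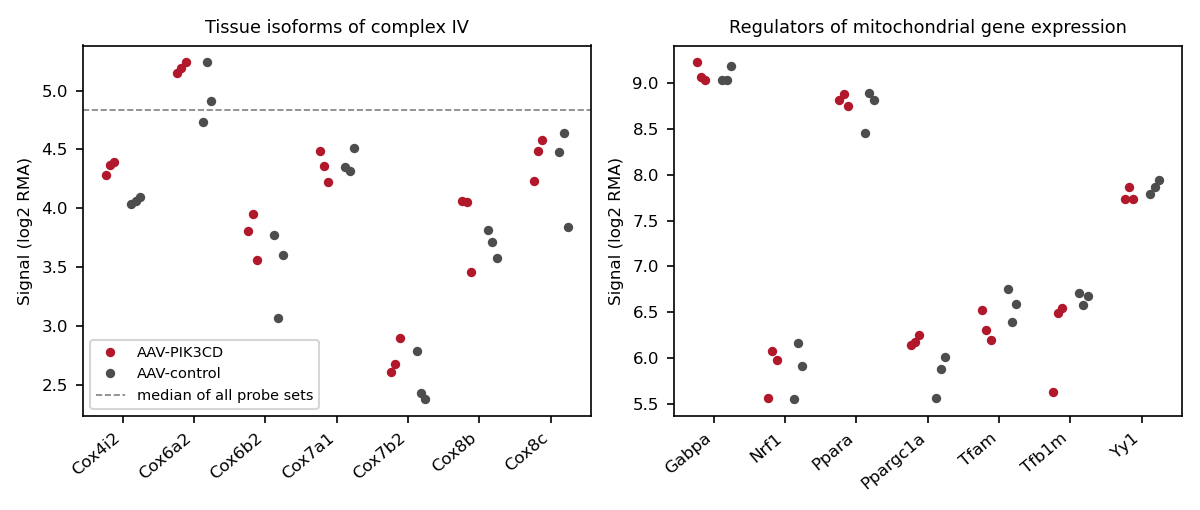
Signal of the 7 tissue isoforms of complex IV (left) and of 7 regulators of mitochondrial genes (right) on each array (log2, y axis), with AAV-PIK3CD arrays 51, 52 and 53 in red and AAV-control arrays 48, 49 and 50 in grey, in that order from the left for each gene. Cox4i2 and Ppargc1a are the genes in which every AAV-PIK3CD array lies above every AAV-control array.

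Complex V, the ATP synthase, had all 17 members lowest on array 51, with unequal size between its parts. By median, the c ring, the rotor in the membrane through which protons pass, was furthest down. Its 3 genes, which code for the same mature protein, had a median of -0.62 on array 51 against the other arrays. The 4 members of the peripheral stalk had a median of -0.44 and the 5 other membrane members -0.41. The 5 members of F1, the catalytic head, had a median of -0.21. Single genes of the parts overlapped. They ran from -0.77 to -0.45 in the c ring and from -1.03 to -0.22 in the stalk. The other membrane members ran from -0.69 to -0.35 and F1 from -0.34 to -0.11. Atp5o, the stalk protein that holds the head (OSCP), read 8.47, 9.50 and 9.59 in AAV-PIK3CD and 9.45, 9.46 and 9.52 in AAV-control. Its difference of -0.29 (SE 0.25, exact permutation p = 0.9, rank products p = 0.071, adjusted p = 0.906) was 0.07 without array 51, which lay 1.03 below the other arrays. Atp5g2, a c ring gene, read 8.85, 9.57 and 9.67 in AAV-PIK3CD and 9.70, 9.66 and 9.52 in AAV-control, and Atp5g1, another, read 8.88, 9.41 and 9.55 in AAV-PIK3CD and 9.51, 9.71 and 9.31 in AAV-control. In both, arrays 52 and 53 overlapped AAV-control and array 51 lay below.

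The alpha and beta subunits of F1, where ATP is formed, read close to the other arrays on array 51. Atp5b, the beta subunit, read 11.22, 11.30 and 11.37 in AAV-PIK3CD and 11.23, 11.39 and 11.39 in AAV-control. Atp5a1, the alpha subunit, read 11.43, 11.51 and 11.56 in AAV-PIK3CD and 11.47, 11.55 and 11.63 in AAV-control. Both were lowest on array 51 but close to the next array, and the differences of -0.04 and -0.05 were under their SEs of 0.12. Atp5e, the epsilon subunit, read 7.18, 7.41 and 7.38 in AAV-PIK3CD and 7.45, 7.52 and 7.45 in AAV-control. Its groups did not overlap with or without array 51, with differences of -0.15 (SE 0.12) and -0.08.

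**Figure D4:**
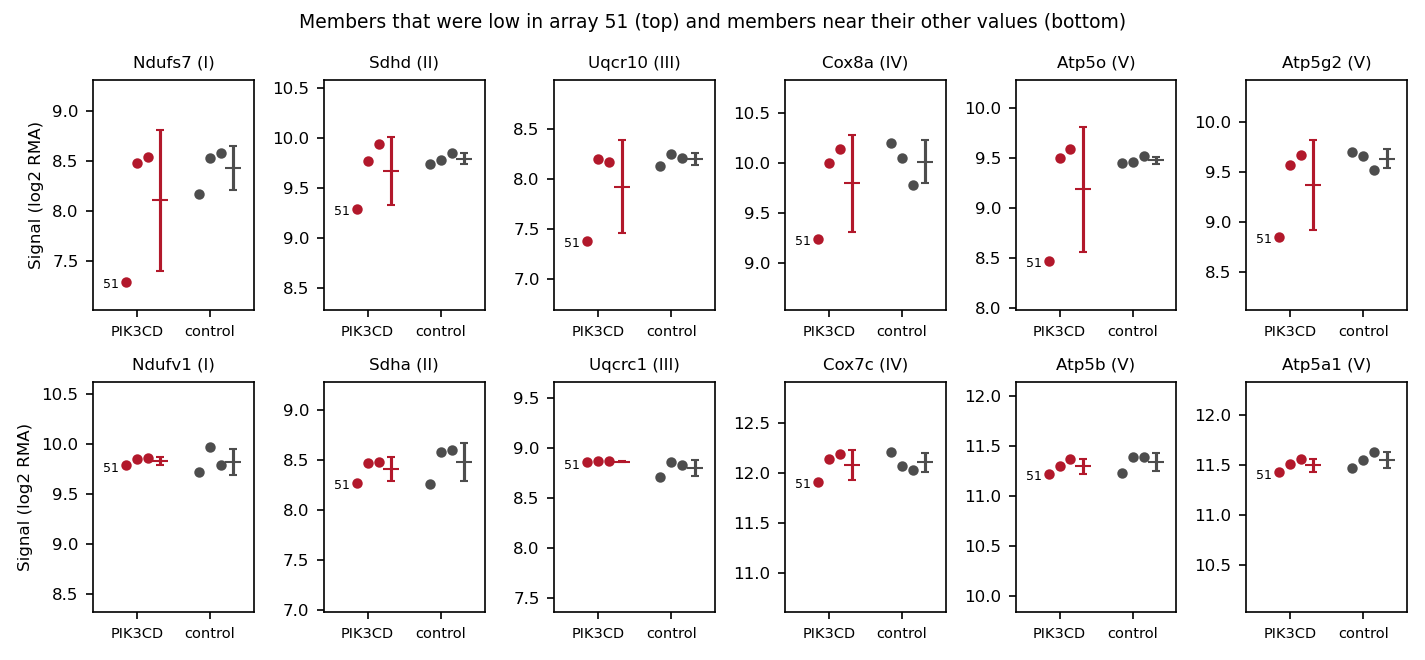
Signal (log2, y axis) of 12 members on the 6 arrays, AAV-PIK3CD at the left in red with array 51 marked and AAV-control at the right in grey; points are arrays, and the bar beside them is the mean with its SD (n = 3). In the upper row array 51 lies below all other points, and in the lower row it lies near them; every panel spans the same range of log2 units.

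Array 51 was also read by promoter motif, as a description. The 20 members with an NRF1 match had a median of -0.36 against the other arrays, and the 49 without one had -0.30. With an ETS match the median was -0.38 over 17 members, and without it -0.29 over 52. With a YY1 match it was -0.32 over 10 members, against -0.33 over 59 without. These splits were not tested.

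Other genes of the pathway were read from lists beside the members, and 0 genes of any of these lists passed rank products or limma. Over all probe sets rank products called 0.0045% higher and 0.036% lower, and limma 0%. Of 49 measured assembly factors, which build the complexes and are not part of them, 35 were lower in AAV-PIK3CD, with a median difference of -0.10 and of -0.01 without array 51. The groups did not overlap for 5 of the 49 that were lower and 2 that were higher, where 4.97% and 4.47% of all probe sets were apart. Bcs1l, which inserts the iron-sulfur protein of complex III, read 6.64, 6.69 and 6.93 in AAV-PIK3CD and 7.09, 6.94 and 7.48 in AAV-control. Its groups did not overlap, the difference was -0.42 (SE 0.16), and it was -0.36 without array 51. Sdhaf3, an assembly factor of complex II, read 5.73, 5.94 and 5.81 in AAV-PIK3CD and 6.24, 6.20 and 6.18 in AAV-control, with a difference of -0.38 (SE 0.12) and of -0.33 without array 51. Neither passed the test, with rank products adjusted p of 0.778 and 0.844. For Bcs1l, array 53 lay just under the lowest AAV-control array, and Sdhaf3 was named after its values were seen. Coa4, linked to complex IV assembly, read 5.25, 5.59 and 5.23 in AAV-PIK3CD and 5.18, 5.22 and 4.58 in AAV-control, higher with no overlap but close to arrays 48 and 49.

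Ribosomal proteins showed the low array 51 too. Of 76 mitochondrial ribosomal proteins, which make the mitochondrial coded subunits, 61 were lower in AAV-PIK3CD with a median of -0.12, and 51 (67.1%) were lowest on array 51. Without array 51 the median was -0.05. Mrpl30 read 6.39, 7.29 and 7.50 in AAV-PIK3CD and 7.52, 7.52 and 7.37 in AAV-control. Of 59 cytosolic ribosomal proteins, 48 were lower, with a median of -0.06 and of 0.003 without array 51, and 26 were lowest on array 51 and 24 on array 50 of AAV-control. Rpl39 read 7.65, 8.46 and 8.52 in AAV-PIK3CD and 8.53, 8.65 and 8.55 in AAV-control. Low signal on array 51 was therefore also seen in nuclear genes outside the respiratory complexes.

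Enzymes that feed the chain were less uniform. In the citrate cycle and pyruvate dehydrogenase list, 11 of 17 were lower with a median of -0.07 and of 0.03 without array 51, and 7 were lowest on array 51 and 7 on array 48. Pdha1, a catalytic subunit of pyruvate dehydrogenase, read 7.37, 8.17 and 8.41 in AAV-PIK3CD and 8.03, 8.19 and 8.61 in AAV-control. Among 13 genes of cytochrome c and coenzyme Q synthesis, 8 were lower with a median of -0.04, and 4 were lowest on array 51. Of the subunits that the naming rule left out, Ndufab1, the acyl carrier protein of complex I, differed by -0.22 (SE 0.14) and Cyc1, cytochrome c1 of complex III, by -0.05 (SE 0.11). The other 13 genes of that list, coded in mitochondrial DNA, were not analysed here.

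**Figure D5:**
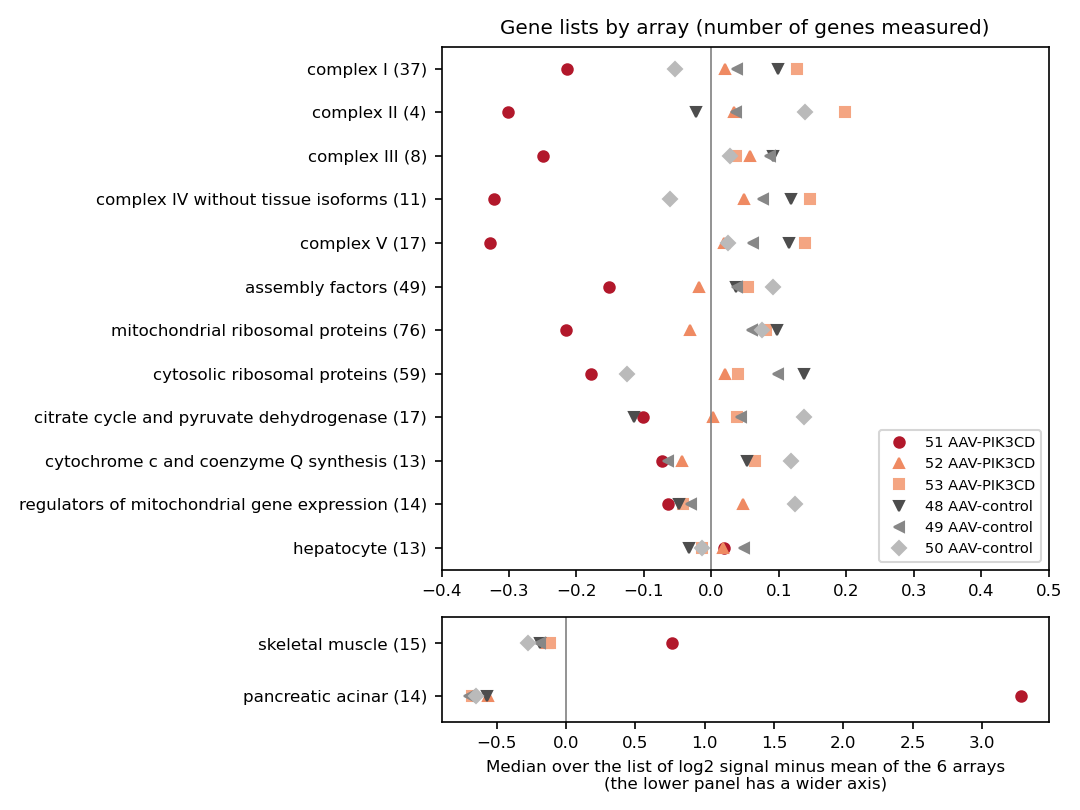
Median over each gene list of the log2 signal minus the mean of the 6 arrays (x axis), by list (y axis, number of genes measured in brackets), with AAV-PIK3CD arrays in red shades and AAV-control arrays in grey shades. Array 51 is the lowest point for each of the 5 complexes, at -0.33 for complex V, lies at 0.02 for hepatocyte markers, and is at 3.28 for pancreatic acinar markers in the lower panel.

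The regulators gave no common direction. Of 14 measured, 5 were higher and 8 lower in AAV-PIK3CD, with a median of -0.06. Ppargc1a, the coactivator PGC-1alpha, read 6.14, 6.17 and 6.25 in AAV-PIK3CD and 5.56, 5.88 and 6.01 in AAV-control. The groups did not overlap, and the difference was 0.37 (SE 0.14, rank products adjusted p = 0.828) and 0.39 without array 51. Of the 14 regulators, 1 was apart higher and 1 apart lower, where 4.47% and 4.97% of all probe sets were. Tfb1m, which modifies mitochondrial ribosomal RNA, read 5.63, 6.49 and 6.54 in AAV-PIK3CD and 6.71, 6.58 and 6.68 in AAV-control, a difference of -0.44 (SE 0.21) that was -0.14 without array 51. Nrf1 averaged 5.87 ± 0.28 in AAV-PIK3CD and 5.87 ± 0.31 in AAV-control, and Gabpa, the ETS protein of GABP, averaged 9.11 ± 0.10 in AAV-PIK3CD and 9.09 ± 0.09 in AAV-control (SD, n = 3 each). Tfam, which packages mitochondrial DNA, read 6.52, 6.30 and 6.20 in AAV-PIK3CD and 6.75, 6.39 and 6.59 in AAV-control, with a difference of -0.24 (SE 0.14) and of -0.33 without array 51.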

How the data were processed

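RNA of 6 samples was measured, 3 of AAV-PIK3CD and 3 of AAV-control, from 100 ng of total RNA per array. The authors normalised the Clariom S mouse arrays by RMA and deposited log2 values with 2 decimals. Software version and summary level are not given in the sources used here. RMA makes the arrays' distributions alike, so a value is relative to the rest of its array. Arrays have no read depth, and their number, 3 per group, limits the precision. Array medians lay between 4.81 and 4.87.

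Gene symbols came from the platform annotation, where 19572 probe sets had 1 symbol and 2634 had none. The highest mean stood for a symbol with several probe sets (55 symbols). Groups were taken from the titles. The comparison used rank products, which the study's methods name, over all 22206 probe sets: 9 pairs of arrays, 1000 seeded shuffles within arrays, 2-sided, Benjamini-Hochberg at 0.05. The study's own implementation and cutoff were not reproduced, and it reported more upregulated genes in AAV-PIK3CD livers than were called here. Limma 3.58.1 in R 4.3.3 gave SEs and another p. Differences are AAV-PIK3CD minus AAV-control. For single genes an exact 2-sided permutation over the 6 arrays was used, which cannot go below p = 0.1. Lists were described by counts and medians with no test. On simulated data with 50 genes changed by 0.5 log2 units, rank products recovered 9 and limma 16, and both recovered 50 of 50 at 1 unit. These recoveries hold for the simulated data only. On the deposited arrays limma called 0 of 22206 probe sets, whose differences ran from -1.62 to 2.67. The simulation therefore does not give the power of either test on these arrays.

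The members and lists were chosen with earlier results of these data known. Named genes were the 3 of each complex and direction with the smallest rank products p, the Sdh genes, the tissue isoforms, the 5 with the largest range over the arrays, members under the median level, and 2 per other list. Other genes (Atp5a1, Atp5b, Atp5e, Cox7a2, Cox7c, Ndufb4b, Ndufs1, Ndufv1, Uqcrq, Sdhaf3, Tfam, Nrf1, Gabpa, and in the plots Ppara and Yy1), the printed promoters and the grouping into core, accessory, stalk, ring and head were chosen after values were seen. The alternatives tried were limma, 3 rescalings of the deposited values (quantile, array median and cyclic loess), a filter on the dimmest 25% or 50%, the mean of a symbol's probe sets, structural subunits only, and omission of each array in turn. Python 3.11.15, numpy 2.4.6, pandas 2.3.3 and matplotlib 3.10.9 were used.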

Additional observations from a re-analysis of the deposited data

How the results depend on the processing

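The count of members called was 0 in each direction with limma, 3 scalings, 2 filters on dim probe sets, the mean of a symbol's probe sets, structural subunits only and every single array omitted. For all members together, the median difference lay below 0 under the scalings (-0.12 to -0.04) and with structural subunits only (-0.10), and was 0.03 without array 51. Omitting single arrays gave -0.16 to -0.0175 for complex III and -0.22 to 0.0083 for complex V, the highest value of each without array 51. The medians of complexes I and IV changed sign under quantile normalization and cyclic loess, by less than the spread between arrays. Median centring moved the median of all probe sets to -0.04.

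Sdhb came to 0.0144 under quantile normalization and 0.0203 under cyclic loess. Of all 84 members, 49 had differences of both signs over the omissions of single arrays. Values are given here only for the members named by the rules stated above. Among these, any other change of sign came only when an array was omitted. For members lowest with array 53 omitted and highest with array 51 omitted, the difference ran from -0.4917 to 0.0683 for Atp5o, -0.2967 to 0.0133 for Cox4i1, -0.3717 to 0.0083 for Cox6b1, -0.39 to 0.06 for Cox8a, -0.5417 to 0.0833 for Ndufs7, -0.1417 to 0.1033 for Sdhb and -0.26 to 0.065 for Sdhd. For members that changed sign without array 50, it ran from -0.1267 to 0.2733 for Cox8c, -0.01 to 0.23 for Ndufa7 and -0.0717 to 0.2033 for Ndufb8. Cox7a1 ran from -0.1033 to 0.0317 and changed sign without array 50 (0.0217) or array 53 (0.0317). The cause was not tested. Members below a filter had no value under it. No paired analysis was possible because the labels give every array its own number, so the groups share none.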
